A study of Homo sapiens with 6 samples.

Results

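The 37 genes described here lie along a stretch of the long arm of human chromosome 11, in bands 11q22 to 11q23.1. They run from PGR at the centromere side to ARHGAP20 at the other end, with YAP1 and BIRC2 near the start. The matrix metalloproteinase (MMP) gene cluster is left out, and so are other genes inside the run, among them CFAP300, POGLUT3 and ZC3H12C. The run was chosen by the measured difference between the lines on these arrays, where neighbouring genes here were higher in a chondrosarcoma line than in a chondrocyte line, so that difference is given below as a description, without p-values. Of the 37 genes, 35 had at least 1 probe under their platform gene symbol, with 51 probes in all among the 47231 probes of the array. A probe counted as measured when its detection value (1 minus the detection p) was above 0.99 on all 3 arrays of at least 1 line. By that rule 31 of the 51 probes and 23 of the 37 genes were measured, of 19384 measured probes and 11515 measured genes in the whole series.

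Total RNA was compared between 2 human cell lines, each on 3 Illumina expression arrays: C28, chondrocytes that served as the control, and JJ012, a chondrosarcoma line, chondrosarcoma being a malignant tumour that makes cartilage matrix. Both lines were handled alike, with 5000000 cells seeded per dish and lysed after 24 h, and neither carried a named treatment or genetic change. Each group is a single line, so line and disease cannot be told apart, and since separate cultures are not stated for the arrays, p-values measure the spread between arrays, which may be technical. The arrays measured RNA; DNA copy number was not analysed here.

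YAP1 encodes a transcriptional co-activator of the Hippo pathway, a kinase cascade in which LATS kinases keep YAP1 and its relative TAZ (gene WWTR1) out of the nucleus; in the nucleus they act with TEAD factors on growth genes. BIRC2 and BIRC3 encode cIAP1 and cIAP2, ubiquitin ligases of the TNF receptor complex that restrain cell death and keep the kinase NIK (gene MAP3K14) low. Gain of the 11q22 region is known from several carcinomas, where YAP1 and BIRC2 are the genes most often discussed. The run also holds the inflammatory caspase genes with their CARD-only relatives, the DNA damage kinase gene ATM, and enzymes, transporters and structural genes that share only their position.

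Median probe intensities were 84.4 to 102 on the 6 arrays, and 17826 to 19332 probes were detected. Across 15285 probes detected on every array, the correlation of log2 signal was 0.994 to 0.996 for pairs of C28 arrays, 0.986 to 0.992 for pairs of JJ012 arrays and 0.891 to 0.907 for mixed pairs. JJ012 replicate 1 stood apart. Of 38 probes bright throughout C28 but off on JJ012 replicate 2, replicate 1 detected all 38, at a median of 10.4% of the C28 intensity. Replicate 3 detected 23 of them, at a median of 2.07%, and the median on replicate 2 was 0.548%. Values without that array stand beside the named partner and MMP genes that were lower in JJ012 where it moved them most, and the source of the signal was not tested. In the other direction, 23 probes bright in JJ012 and off on at least 2 C28 arrays had medians of 0.539% to 0.769% of the JJ012 intensity on the C28 arrays. The low values on JJ012 replicate 2 and in C28 follow in part from how these probes were chosen. Of 10 chondrocyte markers, only SOX9 and MATN3 were detected on all C28 arrays and only SOX9 on all JJ012 arrays, and ACAN, COL9A1, COL11A2, COMP, HAPLN1 and PRG4 on none. Of 4 mesenchymal markers, all detected on every C28 array, VIM read 14.41 in C28 and 14.65 in JJ012, COL1A1 11.37 and 9.92, COL1A2 8.37 and 6.25, and THY1 read 7.27 in C28 and was undetected in JJ012. The blood marker CD14 was detected on all 6 arrays, at 9.38 in C28 and 6.66 in JJ012. The blood markers PTPRC and CD3E and the endothelial markers VWF and CDH5 were detected on no array, while PECAM1 was detected on the 3 JJ012 arrays. Of 4 epithelial markers, C28 arrays all detected EPCAM, KRT8 and KRT18, and CDH1 was never detected. KRT8 read 9.91 in C28 and 6.46 in JJ012 (detected on 2 JJ012 arrays), EPCAM 7.49 and 5.50 (on 1), and KRT18 7.02 and 6.79 (on 3).

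Most measured genes of the run were higher in JJ012, and YAP1 was not among them. With a call set at an adjusted p under 0.05 (limma, Benjamini-Hochberg over all measured probes) and at least 2-fold, 18 of the 23 measured genes were called higher, 0 lower and 5 not called, against 13.7% of all 11515 genes called higher and 17.6% lower. Because this contrast chose the run, nothing is read from the excess. The 5 genes not called were YAP1, TMEM123, DCUN1D5, CUL5 and ATM. Among all 31 measured probes, 24 were called higher and 0 lower, against 13.9% and 15.9% of all probes. In 20 of the 23 genes every JJ012 array was above every C28 array (36.3% of all genes), and 20 had a positive fold change (48.0% of all genes). The median log2 fold change over the 23 genes was 1.35, against −0.04 over all genes, and fitted changes ran from −0.28 for TMEM123 to 2.57 for CASP4 and DDX10. Of the called genes, 15 had fitted changes of 2-fold to 4-fold, and 3 were above 4-fold: DDX10, CASP4 and ALKBH8. Without background correction ALKBH8 was at a log2 fold change of 1.41 instead of 2.07.

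Each JJ012 array showed the shift. Relative to the C28 mean of each gene, the median over the 23 genes was 1.35, 1.40 and 1.30 on JJ012 replicates 1, 2 and 3, where all genes had medians of −0.07, −0.01 and −0.03. The C28 arrays had medians of −0.06, 0.07 and 0.05. Of the 18 called genes, JJ012 replicate 1 was the lowest JJ012 array in 10, replicate 2 in 5 and replicate 3 in 3. Of the measured genes, 18 were detected on all 6 arrays. CEP126, PDGFD, KBTBD3, SLN and EXPH5 were detected on every array of JJ012 and none of C28, as were 3.90% of all genes. Their change therefore has only a lower bound, which holds under the background correction used here. They count as measured through JJ012 alone, which favours a higher value there. With those 5 genes at their bounds, the median log2 fold change was 1.21 and 15 genes remained at 1 or above. Among genes detected on all 6 arrays, 13 of 18 were called higher and 0 lower, against 10.8% of 9399 genes called higher. The size of the change in dim genes depends on the background correction: without it, or with a normexp correction at an offset of 50, 11 of the 23 genes were called higher instead of 18, the 7 others being CASP1, NPAT, PDGFD, KBTBD3, EXPH5, SLN and CEP126.

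**Figure D1:**
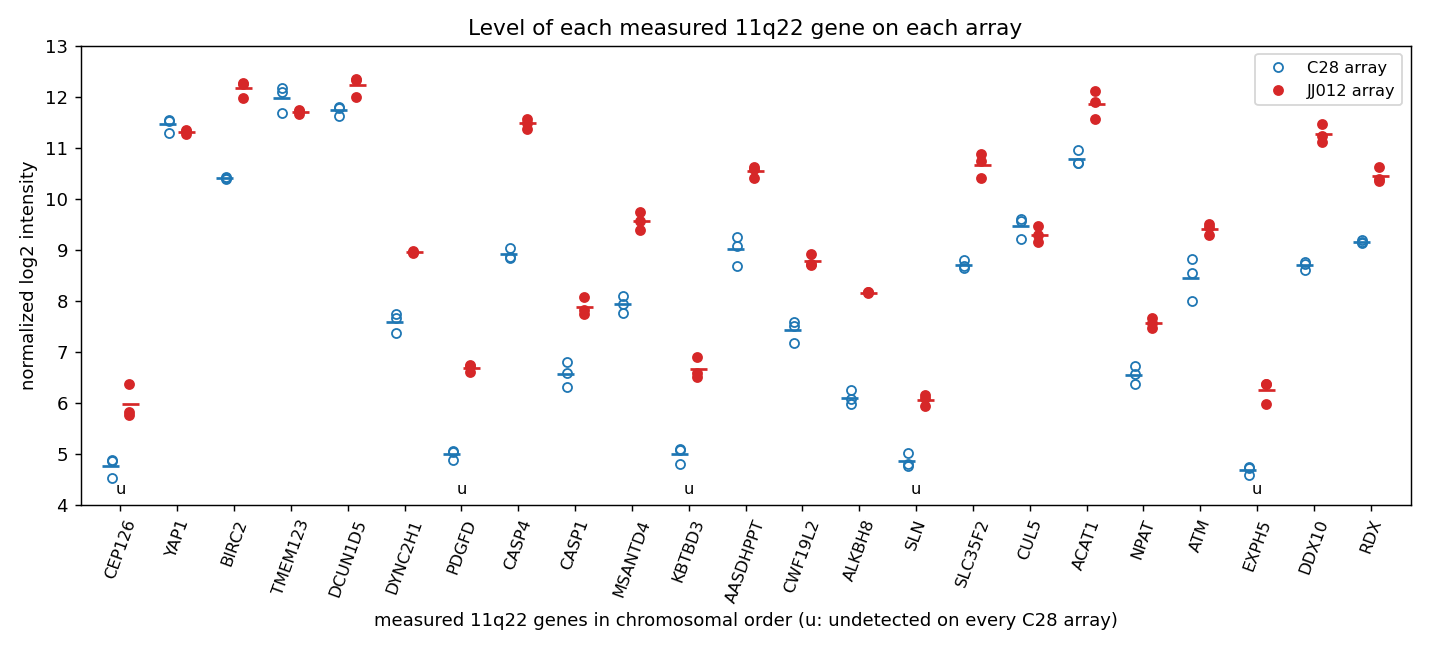
Normalized log2 intensity of the 23 measured genes of the run in chromosomal order, with 1 open circle per C28 array, 1 filled circle per JJ012 array and a bar at each mean (n = 3 arrays a line). The circles of the lines are separate in 20 genes and overlap in YAP1, TMEM123 and CUL5; a u marks the 5 genes that no C28 array detected.

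The promoter windows of 5 genes are printed because these genes span the responses in the run: BIRC2, DDX10 and AASDHPPT were called higher and hold the cyclic AMP response element letters, CASP4 was called higher and holds none of them, and YAP1 was not called. Each window runs 5′ to 3′ on the strand of its gene, from 250 bases before the start site to 50 after it, and comes from RefSeq on GRCh38.p14. Capitals mark the letters TGACGTCA (cyclic AMP response element) and GGAATG (the core bound by TEAD factors), searched on both strands. The windows lie at chr11:102346964-102347263 (BIRC2, plus strand), chr11:108664819-108665118 (DDX10, plus strand), chr11:106077412-106077711 (AASDHPPT, plus strand), chr11:104968525-104968824 (CASP4, minus strand) and chr11:102110197-102110496 (YAP1, plus strand).
BIRC2: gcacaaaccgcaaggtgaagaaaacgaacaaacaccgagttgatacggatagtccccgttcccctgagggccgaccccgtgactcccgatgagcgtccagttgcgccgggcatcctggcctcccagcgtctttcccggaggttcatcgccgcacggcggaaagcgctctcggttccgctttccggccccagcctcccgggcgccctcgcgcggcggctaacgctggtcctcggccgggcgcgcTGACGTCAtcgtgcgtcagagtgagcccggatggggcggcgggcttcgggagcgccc
DDX10: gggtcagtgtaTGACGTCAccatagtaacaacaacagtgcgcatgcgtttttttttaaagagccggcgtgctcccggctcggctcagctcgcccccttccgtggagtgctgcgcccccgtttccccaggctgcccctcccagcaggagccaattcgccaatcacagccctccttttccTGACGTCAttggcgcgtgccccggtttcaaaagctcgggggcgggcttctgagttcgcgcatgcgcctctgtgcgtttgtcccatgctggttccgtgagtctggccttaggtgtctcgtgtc
AASDHPPT: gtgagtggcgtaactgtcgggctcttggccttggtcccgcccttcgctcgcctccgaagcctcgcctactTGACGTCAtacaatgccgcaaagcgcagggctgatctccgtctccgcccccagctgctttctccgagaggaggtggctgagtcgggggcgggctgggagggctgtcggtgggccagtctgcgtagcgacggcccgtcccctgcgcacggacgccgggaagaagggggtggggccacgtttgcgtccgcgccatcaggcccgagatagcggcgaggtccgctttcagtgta
CASP4: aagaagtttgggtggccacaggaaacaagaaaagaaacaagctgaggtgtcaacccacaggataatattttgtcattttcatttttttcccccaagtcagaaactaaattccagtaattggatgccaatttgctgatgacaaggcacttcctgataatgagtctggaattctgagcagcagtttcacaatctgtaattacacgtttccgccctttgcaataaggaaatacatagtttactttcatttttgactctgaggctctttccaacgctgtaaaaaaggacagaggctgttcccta
YAP1: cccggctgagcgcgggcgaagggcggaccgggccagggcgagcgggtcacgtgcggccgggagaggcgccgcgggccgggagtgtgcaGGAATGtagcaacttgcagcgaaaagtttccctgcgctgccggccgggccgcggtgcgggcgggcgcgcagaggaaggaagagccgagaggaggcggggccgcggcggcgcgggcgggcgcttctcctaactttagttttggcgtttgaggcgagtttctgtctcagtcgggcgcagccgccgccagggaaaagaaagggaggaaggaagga

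Of the 37 genes, 30 had a promoter window, 16 of them called higher, 5 measured and not called and 9 not measured. These 30 genes had 40 windows, and only the window furthest upstream was searched for each gene. The shares over all windows count every window of every gene, so they are not in the same unit. The full cyclic AMP response element stood in 4 of the 16 windows of called genes (BIRC2, KBTBD3, AASDHPPT and DDX10) and in 0 of the other 14, while 649 of all 35116 windows (1.85%) hold it. In BIRC2 it starts 7 bases before the start site, and in DDX10 it occurs at 239 and at 72 bases before it. KBTBD3 and AASDHPPT are transcribed away from each other and their windows share 186 bases, so their element is 1 site, 142 bases before the start of KBTBD3 and 180 before that of AASDHPPT. NPAT and ATM, a second such pair, share 72 bases. The motifs were chosen with these sequences in view, so the counts are a description and a match is no evidence of binding.

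The TEAD core GGAATG was in 0 of the 16 windows of called genes, in YAP1 among the 5 not called and in GRIA4 among the 9 not measured, against 14.0% of all windows. The E-box CACGTG was in YAP1 and CUL5, both not called, in GUCY1A2, and in 0 of the 16, against 7.26% of all windows. CCAAT stood in 10 of the 16 windows (34.6% of all windows), GGGCGG, the core bound by Sp1, in 12 of the 16 (45.0%), and TATAAA in 0 of the 16 (11.5%). Median GC content was 62.4% in the 16 windows, 64.3% in the 5 of genes not called, 49.7% in the 9 of unmeasured genes and 58.7% in all windows. CASP4 had the lowest GC content of the 16, at 39.7%, as the printed window shows.

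YAP1, whose product is the Hippo pathway's output, read 11.30, 11.55 and 11.53 on the C28 arrays and 11.27, 11.35 and 11.33 on the JJ012 arrays. The groups overlapped, and the log2 fold change was −0.14 (SE 0.10). On the linear scale before background correction its probe read 2980.7 to 3238 in C28 and 2258.5 to 2573.1 in JJ012, so it was bright in both lines. These unscaled values did not overlap, and under median scaling the log2 fold change was −0.31, so the overlap depends on the scaling; YAP1 was higher in JJ012 under none of the alternatives.

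BIRC2, the cIAP1 ligase gene, read 10.41, 10.39 and 10.43 in C28 and 12.25, 11.97 and 12.27 in JJ012. All JJ012 arrays were above all C28 arrays, by 3.37-fold (log2 fold change 1.75, SE 0.11). Its other probe read 8.44, 8.72 and 8.70 against 10.23, 10.02 and 10.58, a log2 fold change of 1.66 (SE 0.16), so both probes gave the same direction at similar size. BIRC3, the cIAP2 gene, had no probe under its symbol. TMEM123, a membrane glycoprotein gene beside BIRC2, read 11.69, 12.18 and 12.09 in C28 and 11.72, 11.74 and 11.67 in JJ012. Its groups overlapped (log2 fold change −0.28, SE 0.14), with C28 replicate 1 at the JJ012 level. The change was −0.43 without that array and −0.44 under median scaling, below 2-fold in each.

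Among the inflammatory caspases, CASP4 was the gene with the largest change. Its product senses lipopolysaccharide inside cells and cuts gasdermin D. Its brightest probe read 9.03, 8.84 and 8.86 in C28 and 11.37, 11.57 and 11.48 in JJ012, a 5.93-fold difference (log2 fold change 2.57, SE 0.10). The JJ012 arrays stood far above C28 and close to each other. Its other probes were undetected in C28 and were at least 5.70-fold and at least 2.76-fold higher in JJ012. In the other 6 genes with more than 1 measured probe, fitted log2 fold changes of the probes lay within 0.12 of each other.

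CASP1 encodes the protease that matures interleukin 1 beta. It read 6.58, 6.79 and 6.31 in C28 and 7.74, 8.08 and 7.82 in JJ012, without overlap (log2 fold change 1.32, SE 0.15). A further CASP1 probe gave 1.24 (SE 0.13) and another was detected on no array. CASP5, also an inflammatory caspase, and CARD16, a CARD-only relative of CASP1, were detected on no array. CARD17, carried by the platform under the symbol CARD17P, had 2 probes that no array detected. CARD18, another CARD-only gene, lay just outside the measured rule: it read 4.67, 4.53 and 4.60 in C28 and 5.56, 5.89 and 5.64 in JJ012, with detection values of 0.98831, 0.99351 and 0.99091 on the JJ012 arrays. The JJ012 arrays were above C28, yet replicate 1 missed the detection value of 0.99. Just inside the rule was CEP126, with detection values of 0.99351, 0.9974 and 0.99351 in JJ012.

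Genes of nucleic acid handling included the largest change of the run beside CASP4. DDX10, an RNA helicase gene of ribosome assembly, read 8.60, 8.77 and 8.73 in C28 and 11.12, 11.46 and 11.24 in JJ012. The groups were well separated, at 5.95-fold (log2 fold change 2.57, SE 0.12). ALKBH8, which encodes a tRNA wobble uridine methyltransferase, read 6.24, 6.08 and 5.97 against 8.17, 8.17 and 8.15. Its JJ012 arrays were nearly alike and 4.19-fold above C28 (SE 0.10 on the log2 scale).

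CWF19L2, a gene of the splicing machinery's disassembly, read 7.18, 7.51 and 7.59 in C28 and 8.70, 8.73 and 8.91 in JJ012 (log2 fold change 1.35, SE 0.13). MSANTD4, a gene named for a DNA-binding domain, read 7.77, 8.10 and 7.93 against 9.39, 9.56 and 9.74 (log2 fold change 1.63, SE 0.13). Neither gene's groups overlapped.

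NPAT and ATM are a head-to-head pair. NPAT, a co-activator of histone genes at entry into S phase, read 6.36, 6.73 and 6.56 in C28 and 7.46, 7.56 and 7.66 in JJ012 (log2 fold change 1.01, SE 0.12), just past the 2-fold threshold. ATM, the kinase that answers DNA double-strand breaks, read 7.99, 8.55 and 8.81 against 9.45, 9.29 and 9.50, a log2 fold change of 0.96 (SE 0.20), just below it. ATM's groups did not overlap, and a further probe gave 0.85 (SE 0.19). The pair thus lay on either side of the threshold with changes that differed by less than their standard errors. Leaving out single arrays moved both calls: NPAT lost its call without C28 replicate 1, at 0.92, and without JJ012 replicate 3, at 0.96, and ATM passed at 1.01, 1.14 and 1.02 without C28 replicate 2, C28 replicate 3 and JJ012 replicate 2. NPAT also lost its call under median scaling, at 0.79, and cyclic loess, at 0.95.

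Genes of ubiquitin and NEDD8 transfer were split. CUL5 encodes the scaffold of a ubiquitin ligase family that uses SOCS-box adaptors. It read 9.21, 9.56 and 9.61 in C28 and 9.46, 9.15 and 9.30 in JJ012, with overlapping groups (log2 fold change −0.15, SE 0.14). Its unscaled intensities did not overlap, at 795.8 to 905.8 in C28 and 534.1 to 680.7 in JJ012. Under median scaling its log2 fold change was −0.36, so the overlap depends on the scaling. DCUN1D5, which helps attach NEDD8 to cullins, read 11.80, 11.78 and 11.63 against 12.33, 12.36 and 11.99. After normalization it was higher on every JJ012 array but only 1.40-fold (log2 fold change 0.49, SE 0.13), and a further probe gave 0.45. The unscaled intensities of DCUN1D5 overlapped, at 3443.2 to 4487.8 in C28 and 4025.6 to 4748.3 in JJ012. KBTBD3, a BTB and kelch domain gene whose role is little known, read 5.09, 5.07 and 4.80 in C28, where no array detected it. In JJ012 it read 6.51, 6.90 and 6.58, at least 2.26-fold higher, with a log2 fold change of 0.84 without background correction. Its other probe was undetected in both lines.

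Metabolic enzyme genes were higher where they could be measured. ACAT1, the mitochondrial acetoacetyl-CoA thiolase of ketone body and isoleucine metabolism, read 10.70, 10.96 and 10.70 in C28 and 11.57, 12.12 and 11.90 in JJ012, without overlap. Its log2 fold change of 1.08 (SE 0.15) lost the call without JJ012 replicate 2, at 0.95, and under median scaling, at 0.91. AASDHPPT, which attaches the phosphopantetheine arm to acyl carrier protein and fatty acid synthase, read 8.69, 9.08 and 9.26 against 10.62, 10.41 and 10.59, a log2 fold change of 1.53 (SE 0.16), and 1.64 (SE 0.12) on its other probe. It and its head-to-head neighbour KBTBD3, at a fitted 1.67, were both higher. FDX1, the mitochondrial ferredoxin gene of steroid and iron-sulphur cluster synthesis, was not measured: it read 5.15, 5.23 and 5.49 in C28 and 5.64, 6.34 and 6.17 in JJ012, and JJ012 replicate 1 had a detection value of 0.98961.

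Transport and cytoskeleton genes made up a further group. SLC35F2, a membrane carrier gene, read 8.69, 8.65 and 8.80 in C28 and 10.87, 10.40 and 10.74 in JJ012. It was 3.88-fold higher (log2 fold change 1.96, SE 0.14), and its other probe gave 2.07 (SE 0.12). RDX, which encodes radixin, a linker of actin to the plasma membrane, read 9.16, 9.20 and 9.13 against 10.62, 10.38 and 10.35, a log2 fold change of 1.29 (SE 0.11) with groups far apart relative to the C28 spread.

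DYNC2H1, the heavy chain of the dynein motor that carries cargo back down the cilium, read 7.37, 7.74 and 7.66 in C28 and 8.94, 8.97 and 8.96 in JJ012 (log2 fold change 1.37, SE 0.12). The JJ012 arrays lay closer together than the C28 arrays did. CEP126, a centrosome and cilium gene and the first measured gene of the run, was undetected in C28 at 4.86, 4.52 and 4.88 and read 5.76, 6.37 and 5.82 in JJ012, at least 1.41-fold higher. EXPH5, which encodes a RAB27 effector of vesicle transport, was undetected in C28 at 4.72, 4.59 and 4.73 and read 6.36, 6.37 and 5.98 in JJ012, at least 1.69-fold higher. These bounds lie below 2-fold, so the size of the change in the dim genes is not fixed by the data.

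PDGFD and SLN were detected in JJ012 only. PDGFD, a growth factor that acts on the platelet-derived growth factor receptor beta, was undetected in C28 at 5.04, 4.87 and 5.06 and read 6.72, 6.61 and 6.74 in JJ012, at least 2.31-fold higher. The log2 fold change of PDGFD was 0.85 without background correction, below 2-fold. A further PDGFD probe, detected on 1 JJ012 array, missed the detection rule. SLN, a small inhibitor of the calcium pump of the sarcoplasmic reticulum, was undetected in C28 at 4.79, 4.76 and 5.01 and read 6.15, 5.93 and 6.10 in JJ012, at least 1.49-fold higher. In both genes every JJ012 array stood above C28, near the lower end of the detected range.

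The platform also carried 12 genes of the run that were not measured, and 10 of them were detected on no array. Besides CASP5 and CARD16 these were PGR, the progesterone receptor, TRPC6, a cation channel, ANGPTL5, an angiopoietin-like factor, GRIA4, a glutamate receptor subunit, GUCY1A2, a subunit of the nitric oxide receptor, ELMOD1, RAB39A, a small GTPase of vesicle transport, and ARHGAP20, which encodes a GTPase-activating protein. Their normalized values ran near the floor, for example 4.54 to 4.58 in C28 and 4.46 to 4.66 in JJ012 for PGR.

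Genes on either side of the run on the chromosome were read in the same way. The ends of the run were proposed with results known, so a difference across them is a description. Of all measured genes 13.7% were called higher and 17.6% lower. Of the 20 measured genes before the run 1 was called higher and 3 lower, with a median log2 fold change of 0.13, and the nearest, JRKL, MTMR2 and CEP57, gave 0.60, 0.25 and −0.34. Of the 20 after it 9 were called higher and 4 lower, with a median of 0.80, and of the first 10 of these 6 were higher and 1 lower. The nearest after the run were LAYN, a hyaluronan receptor gene undetected in JJ012 and at least 3.00-fold lower, PPP2R1B, a phosphatase scaffold subunit, at 1.30, and ALG9, a mannosyltransferase, at 0.86. Without background correction PPP2R1B read 0.98 and lost its call, and LAYN read −1.09. The 3 other measured genes inside the run, CFAP300, POGLUT3 and ZC3H12C, were not called, at 0.89, 0.79 and 0.62.

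**Figure D2:**
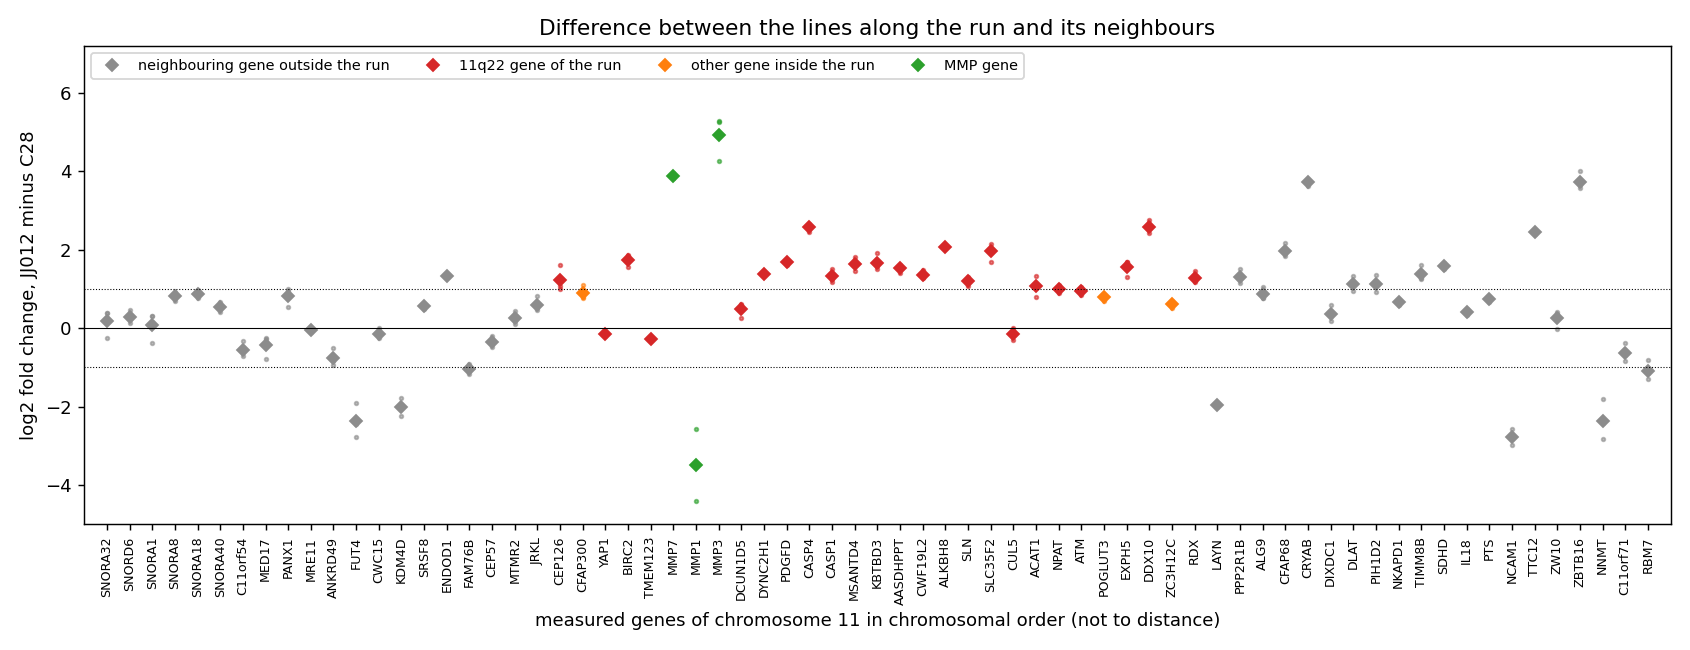
Log2 fold change (JJ012 minus C28) of measured genes in chromosomal order, not to distance, with a diamond for the fitted value, dots for each JJ012 array minus the C28 mean and dotted lines at 2-fold. Genes of the run lie between −0.28 and 2.57, with YAP1, TMEM123 and CUL5 below 0 among higher neighbours, and the 3 MMP genes lie between −3.49 and 4.94.

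The MMP cluster lies inside the run between TMEM123 and DCUN1D5 and held large changes in both directions. Its products break down the matrix around cells. Of its 9 listed genes 3 were measured. MMP7, matrilysin, rose from 5.59 ± 0.07 to 9.47 ± 0.07 (SD, n = 3 arrays each; log2 fold change 3.87, SE 0.09, limma adjusted p = 6.12e-08), and was at 2.80 without background correction. MMP3, stromelysin 1, was undetected in C28 and at least 21.7-fold higher in JJ012. It counts as measured through JJ012 alone, and its log2 fold change was 3.51 without background correction. MMP1, an interstitial collagenase, read 11.14, 11.04 and 10.81 in C28 and fell to 8.43, 6.60 and 7.50 in JJ012 (log2 fold change −3.49, SE 0.39, limma adjusted p = 8.98e-05). Its JJ012 arrays read 16.1%, 3.96% and 8.07% of the C28 mean on replicates 1, 2 and 3, and replicate 1 is the array with the most C28 signal; without that array the log2 fold change was −3.95.

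Chromosome 11 as a whole held a larger share of higher genes than the other chromosomes measured. Of its 668 measured genes 27.5% were called higher and 11.8% lower, the highest share of higher genes among 23 chromosomes, with X next at 21.5%. Without the genes of the run the shares were 25.7% and 12.2% of 645 genes. In consecutive stretches of 40 measured genes, the one that holds all 23 measured genes of the run, from ENDOD1 to DIXDC1, had 60.0% called higher and a median log2 fold change of 1.26. The stretch before it, from RAB30 to SRSF8, had 5.00% and −0.25, the lowest share on the chromosome. The stretch after it, from DLAT to DDX6, had 40% called higher with 15 genes lower. On the other side of RAB30, FCHSD2 to DDIAS had 32.5% and, beyond that, PITPNM1 to ATG16L2 had 45.0%. The last stretch of the chromosome, FEZ1 to ACAD8 with 28 genes, had 46.4%. Higher genes were therefore not limited to the run. Of the 24 higher genes between ENDOD1 and DIXDC1, 18 belong to the run. This contrast chose the run and its ends, so nothing is read from the 60.0% or from its difference to the stretch before it.

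**Figure D3:**
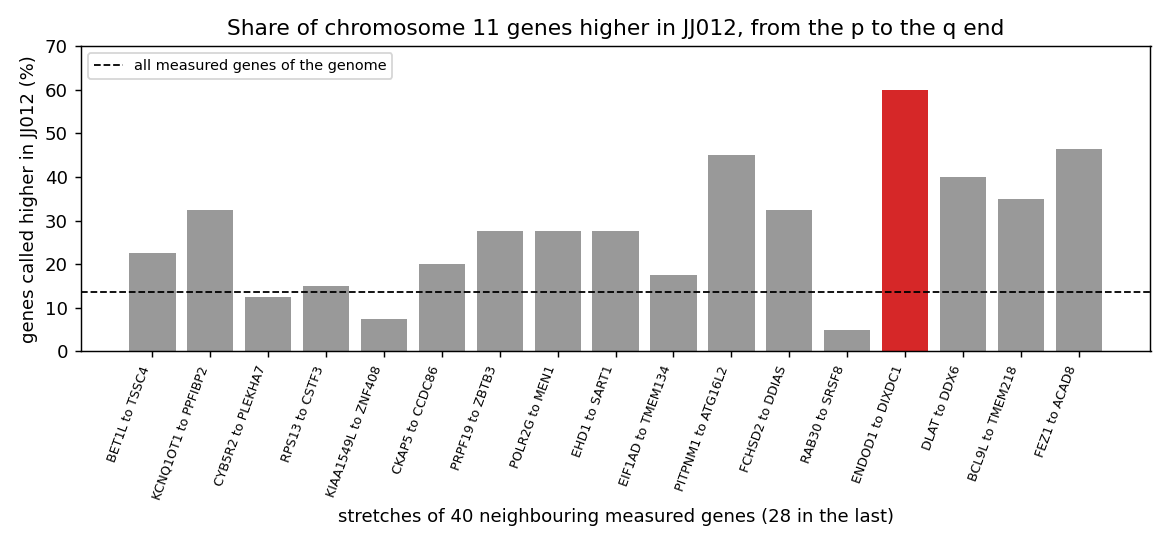
Percent of genes called higher in JJ012 in consecutive stretches of 40 measured chromosome 11 genes (28 in the last), from the short-arm to the long-arm end, with a dashed line at the 13.7% of all measured genes. The red bar, at 60.0%, holds the genes of the run, which were chosen by this contrast, and stands beside the lowest bar, at 5.00%.

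Genes that work with members of the run did not rise as a group. In all, 127 partner genes in 7 lists were followed, of which 103 were measured. Of these 6 rose, 20 fell and 77 were not called, or 5.83% and 19.4% against 13.7% and 17.6% of all genes, and their median log2 fold change was −0.21. AMOTL2, LATS2 and PTPN14 stand in 2 lists each, and IL18 and MRE11 lie among the genes that flank the run. Without background correction 3 rose instead of 6, FAT4, CCDC80 and CASP9 losing their calls at 0.84, 0.60 and 0.78.

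In the Hippo list, 18 of 21 genes were measured (not LATS1, AMOTL1 or TEAD1), of which 1 rose, 2 fell and 15 were not called, with a median log2 fold change of −0.33. FAT4, a giant cadherin upstream of the pathway, was undetected in C28 and at least 2.31-fold higher in JJ012. It counts as measured through JJ012 alone. AMOT, a scaffold that holds YAP1 at junctions, fell from 8.60 ± 0.04 to 5.05 ± 0.66 (SD, n = 3 arrays each; log2 fold change −3.55, SE 0.29, limma adjusted p = 1.46e-05). PTPN14, a phosphatase that binds YAP1, fell by 1.15 on the log2 scale (SE 0.12, limma adjusted p = 5.89e-05). The JJ012 arrays read 10.7%, 1.99% and 3.21% of the C28 AMOT mean, and only replicate 1 detected it; without that array the change was −3.92, and without background correction −2.31. PTPN14 lost its call, at −0.90, when the measured probes of a gene were averaged.

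The TEAD factors and TAZ did not pass the call. TEAD2 was at −0.94 (limma adjusted p = 0.000138), TEAD3 at −0.90 (limma adjusted p = 8.61e-05) and TEAD4 at −0.36 (limma adjusted p = 0.0413), all below 2-fold. WWTR1, the TAZ gene, was at 0.93 (limma adjusted p = 0.00345). TEAD2 reached −1.03 without JJ012 replicate 2, and WWTR1 reached 1.01 without C28 replicate 1 and 1.16 without JJ012 replicate 2, each past the call. Under median scaling TEAD2 and TEAD3 were both called, at −1.13.

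Target genes of YAP and TAZ moved in both directions. All 22 were measured, of which 2 rose, 8 fell and 12 were not called, with a median log2 fold change of −0.30. F3, tissue factor, rose from 8.37 ± 0.12 to 10.47 ± 0.29 (SD, n = 3 arrays each; log2 fold change 2.10, SE 0.16, limma adjusted p = 9.28e-06). CCDC80, a secreted matrix protein gene, rose by 1.07 (SE 0.10, limma adjusted p = 3.68e-05), and lost its call at 0.99 without C28 replicate 2. FJX1, a secreted relative of the fly gene four-jointed, was at −4.04 (SE 0.31, limma adjusted p = 1.1e-05) and NT5E, the CD73 ectonucleotidase, at −3.70 (SE 0.33, limma adjusted p = 2.7e-05). In JJ012 replicate 1 alone detected these last genes, at 8.48% and 11.8% of the C28 mean, and without it they were at −4.44 and −4.14, or at −2.86 and −2.56 without background correction. CCN1 and CCN2, the matricellular genes most used as a YAP readout, were not called: CCN1 was at 0.56 (limma adjusted p = 0.0108) and CCN2 at −0.37 (limma adjusted p = 0.217).

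Of 20 cIAP partners and other IAP genes 13 were measured, of which 2 rose, 1 fell and 10 were not called, with a median of 0.02. BIRC5, survivin, rose by 1.41 on the log2 scale (SE 0.21, limma adjusted p = 0.000419). CASP9, the apoptosome caspase, rose by 1.05 (limma adjusted p = 0.000208). RNA of MAP3K14, the NIK kinase gene, was at −1.03 (limma adjusted p = 0.00173), and the NIK protein that cIAP1 keeps low was not measured. Both calls were near the threshold: CASP9 lost its call without C28 replicate 1, at 1.00, and without JJ012 replicate 2, at 0.93, and MAP3K14 without C28 replicate 1, at −0.87, and without JJ012 replicate 1, at −0.84. XIAP, another IAP gene, was at −0.41 and not called. TRAF1, TRAF2, RIPK1, BIRC7 and NAIP were among the genes not measured.

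The inflammasome genes around CASP1 and CASP4 were few. Of 13 listed 6 were measured, of which 0 rose, 3 fell and 3 were not called, with a median of −0.72. PYCARD, the ASC adaptor that recruits caspase-1, fell from 8.96 ± 0.20 to 5.37 ± 1.20 (SD, n = 3 arrays each; log2 fold change −3.58, SE 0.51, limma adjusted p = 0.000341). Its JJ012 arrays read 19.1%, 1.85% and 2.12% of the C28 mean; replicate 1 alone detected it, and without that array the change was −4.28. It was −2.34 when the measured probes of the gene were averaged and −2.44 without background correction. IL1B, the cytokine that CASP1 matures, was undetected in JJ012 and at least 1.88-fold lower. It counts as measured through C28 alone. NINJ1, which ruptures the membrane of dying cells and was named after its value was seen, was at −1.42 (limma adjusted p = 1.28e-05). GSDMD, the pore-forming substrate of CASP1 and CASP4, was at −0.02 and IL18 at 0.41, neither called.

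In the ATM damage signalling list 14 of 16 genes were measured and 0 were called by limma, although 9 had an unadjusted and 7 an adjusted p under 0.05; their log2 fold changes ran from −0.73 to 0.81, with a median of 0.02. Of 19 cullin and neddylation genes 18 were measured, 0 rose and 2 fell, with a median of −0.16. These were SOCS2, a SOCS-box adaptor gene, at −3.47 (limma adjusted p = 2.42e-05), and CUL4B, a cullin, at −1.04 (limma adjusted p = 3.35e-05). SOCS2 read 14.9%, 5.09% and 7.41% of the C28 mean on the JJ012 arrays, and its change was −3.86 without replicate 1. CUL4B lost its call without background correction, at −0.92.

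The partners of PDGFD, RDX, DYNC2H1, GUCY1A2 and FDX1 counted 19, of which 15 were measured, 1 rose, 5 fell and 9 were not called, with a median of −0.48. PDGFC, a relative of PDGFD that acts mainly on the alpha receptor, rose by 1.30 (limma adjusted p = 8.94e-06). PDGFRB, the receptor of PDGFD, fell from 9.70 ± 0.08 to 6.70 ± 0.25 (SD, n = 3 arrays each; log2 fold change −3.00, SE 0.14, limma adjusted p = 1.09e-06), and its JJ012 arrays read 13.5%, 10.1% and 9.06% of the C28 mean, with a change of −3.14 without replicate 1. PDGFB was undetected in JJ012 and at least 3.60-fold lower. It counts as measured through C28 alone, and its log2 fold change was −1.32 without background correction. RNA of the ligand gene PDGFD passed the detection rule in JJ012 alone, while its receptor gene was lower there. In C28 the detection values of PDGFD were 0.93117, 0.86883 and 0.93896, so its absence from C28 is not shown. Without background correction PDGFD lost its call, at 0.85, and its further probe was detected on only 1 JJ012 array. Whether the ligand and receptor changes are linked was not tested.

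**Figure D4:**
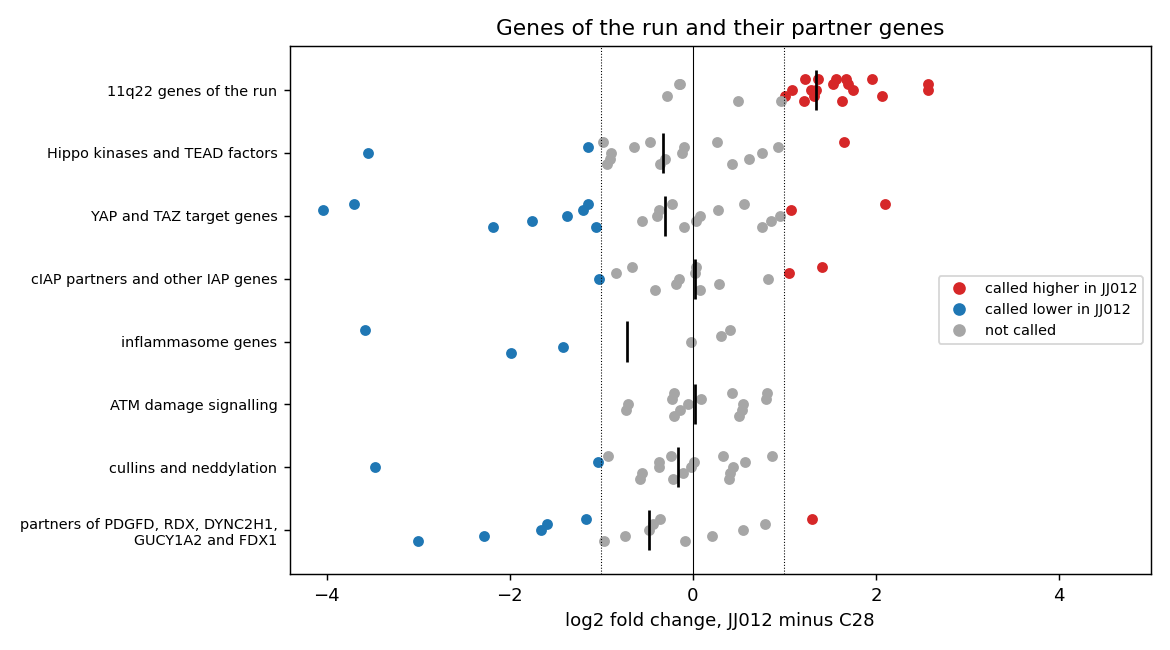
Log2 fold change (JJ012 minus C28) of each measured gene, 1 point a gene, for the run and for the 7 partner lists, with a bar at each median and dotted lines at 2-fold. The run has 18 red points (called higher) and a median of 1.35, while list medians lie between −0.72 and 0.02 and 20 partner genes are blue (called lower), PTPN14 among them appearing in 2 lists.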

How the data were processed

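RNA of 3 C28 and 3 JJ012 arrays was measured on 47231 Illumina probes. The authors deposited linear intensity values, not background-corrected or scaled between arrays, with a fraction per probe headed detection p-value, read here as 1 minus p since bright probes are at 1. The authors' further deposited table of log2 values matched quantile-normalized, uncorrected log2 intensities centred on each probe's median within 0.01 at all 283386 values. Its making is otherwise not stated, and it served as an alternative.

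Intensities were corrected and quantile-normalized with neqc (limma 3.58.1, R 4.3.3; offset 16, negative controls inferred from the detection fractions). Levels are normalized log2 intensities; fold changes are JJ012 minus C28. The measured probes were fitted together (lmFit, eBayes, two-sided) with Benjamini-Hochberg adjustment over all 19384. A gene is given by its measured probe with the highest mean signal. Where no array of a line detected a gene, the other line's mean was compared with a floor for the dim line, which per array is the larger of the probe's signal and the weakest signal of any detected probe, written "at least N-fold". These bounds hold under the neqc correction. With no background correction the fitted log2 fold change was 0.85 for PDGFD, 3.51 for MMP3 and −1.32 for PDGFB. A gene detected on all arrays of only 1 line counts as measured through that line, which favours a higher value there. Its p does not allow for this. The fit and the call, but not the detection filter or the background correction, were tested on simulated data.

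Symbols came from the platform annotation (30113 probes had 1 symbol, 8 several, 17110 none listed) and gene order from RefSeq, GRCh38.p14. Members and lists were chosen with earlier results of these data known. Named were all members, the 3 nearest measured genes on each side, the measured MMP, TEAD, WWTR1, CCN1 and CCN2 genes, and per partner list the 2 called genes with the largest change in each direction; other genes, such as NINJ1, XIAP, GSDMD and IL18, were chosen after their values were seen. There were 17 alternatives. Array number limits the precision.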

Additional observations from a re-analysis of the deposited data

How the results depend on the processing

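Over 17 alternatives, no result changed direction; of 386 alternative values for the 23 measured genes of the run, 356 kept their side of the call, 27 lost it and 3 gained it. The count called higher moved from 18 to 11 with normexp (offset 50), with no background correction and with the authors' values, the same 7 dim genes being lost each time; called lower was 0 throughout. Leaving out 1 array gave 17 to 19 called higher. The median log2 fold change of the run was 0.95 with normexp, 0.92 with no correction and with the authors' values, 1.14 with median scaling, 1.08 with no filter on dim probes, and 1.28 to 1.43 leaving out 1 array. Median scaling moved the median of all genes from −0.04 to −0.23 and the share of calls that are higher from 43.7% to 33.0%, while the run exceeded all genes by 1.37 instead of 1.39. Detection on all 6 arrays, which tests fewer genes, lowered the count of flanking and MMP genes called lower from 8 to 4, of partner genes called lower from 20 to 13, and of all genes from 1574 higher and 2025 lower to 1014 and 1043. Partner genes called higher were 3 instead of 6 with normexp, no correction and the authors' values. Partner genes called lower were 15 instead of 20 in each of these settings, and 27 with median scaling. Leaving out 1 array gave 6 to 8 flanking and MMP genes lower and 12 higher, 20 to 22 partner genes lower and 5 to 7 higher. All genes called higher and lower were 1117 and 1449 with normexp and 1071 and 1391 with no correction. Why the counts moved was not tested beyond the removal of genes by the filter. No pairing of the replicate numbers is given. Correlations of same-numbered deviations were −0.04, −0.07 and 0.05, and those of differently numbered arrays −0.07 to 0.09. With 3 arrays a line these values cannot tell whether the arrays were paired. With the number as a replicate block, 18 genes of the run were called higher, with 1574 higher and 2025 lower in all, and the other counts named here kept their calls. Adjustment over 1 probe a gene, added after the data were seen, gave 18 as well. Signal close to background limits the size of the change in the 5 genes of the run undetected in C28.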

Other observations

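Beyond the run, genes on the telomere side held some of the largest differences of the region; they were named after their values were seen. CRYAB, a small heat shock protein gene, read 4.52 to 4.66 in C28, where it was undetected, and 8.23 to 8.38 in JJ012, at least 7.19-fold higher. ZBTB16, a zinc finger transcription factor gene, was also undetected in C28 and at least 8.23-fold higher. TTC12, a cilium assembly gene, was 5.46-fold higher, from 6.39 to 6.56 in C28 to 8.87 to 8.99 in JJ012. The neighbours SDHD, a subunit of succinate dehydrogenase, and TIMM8B, a mitochondrial import chaperone, were higher by 1.59 and 1.39 on the log2 scale, and CFAP68 by 1.98.

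Lower genes stood among them. NCAM1, a cell adhesion molecule, was undetected in JJ012 and at least 4.15-fold lower, and NNMT, nicotinamide N-methyltransferase, was at a log2 fold change of −2.36. On the centromere side FUT4, a fucosyltransferase, was at −2.38 and KDM4D, a histone demethylase, at −2.01. On JJ012 replicate 1, the array with the most C28 signal, these read 23.3% and 22.8% of the C28 mean, against 10.5% and 14.5% on replicate 2, while ENDOD1 at 1.32 was the only gene called higher among the 20 nearest there.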
